A study of Mus musculus with 3 samples.

Results

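Toll-like receptors are membrane proteins that recognise conserved molecules of microbes and, for some members, molecules released from injured cells or matrix. Tlr1, Tlr2, Tlr4, Tlr5 and Tlr6 encode receptors that act mainly at the cell surface, and Tlr3, Tlr7, Tlr8, Tlr9 and Tlr13 encode receptors of nucleic acids inside endosomes. Ligand binding recruits adaptor proteins such as MyD88 and TRIF, which lead to NF-kappaB and interferon regulatory factors and to the transcription of cytokine genes. In skin wounds these receptors are known from macrophages, neutrophils, dendritic cells and keratinocytes.

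The receptors were described in healing back skin of C57Bl/6 mice aged 6 weeks, an inbred strain with no further allele or agent named in the labels. All animals carried a full-thickness excision of 1.5 cm2, and all compared tissue was wound tissue, with no unwounded skin among the arrays. Dermis with any epidermis above it was taken on day 10, day 12 or day 14. For every time point the wounds of 3 mice were pooled and hybridised to 1 array, so each gene had 1 value per day. No spread between animals could be estimated, and no test was made. The pools also differed in Y-linked transcripts, so day and the sex of the pooled mice cannot be told apart for any gene. The members were 10 receptor genes chosen by symbol, by a rule that itself used no measured value. The members and the gene lists below were, however, chosen with earlier results of these data known. A probe set carrying a single symbol was found for 9 of the 10, among 19938 named genes in all, and Tlr5 was not analysed here. Each of the 9 had 1 probe set, so no gene's value could be set against another probe set of that gene.

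Values are log2 expression, on which a difference of 0.585 corresponds to 1.5-fold. The medians of the 3 arrays over 35556 probe sets were 7.53, 7.55 and 7.53. All 9 receptors stood above the lower quartile of the probe sets on every array. Levels of different probe sets cannot be ranked against each other, so only the days are compared within a gene. Where a gene's 3 values are given in a row, they are those of days 10, 12 and 14.

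The upstream sequences of Tlr13, Tlr8 and Tlr9 are shown first. Tlr13 and Tlr8 had the widest ranges over the days, and Tlr9 was the member with another order of days. For these 3 the RefSeq window also ended at the outermost start of the gene in the RefSeq table. Each run is the 250 bases before the start, from RefSeq on GRCm38.p6, 5′ to 3′ on the strand of the gene. Tlr13 lies at chrX:106143025-106143274 on the plus strand, Tlr8 at chrX:167264330-167264579 on the minus strand, and Tlr9 at chr9:106222348-106222597 on the plus strand. Capitals mark letters that match a core of PU.1, a myeloid transcription factor (GAGGAA), or an AP-1 site (TGANTCA), searched on both strands.
Tlr13: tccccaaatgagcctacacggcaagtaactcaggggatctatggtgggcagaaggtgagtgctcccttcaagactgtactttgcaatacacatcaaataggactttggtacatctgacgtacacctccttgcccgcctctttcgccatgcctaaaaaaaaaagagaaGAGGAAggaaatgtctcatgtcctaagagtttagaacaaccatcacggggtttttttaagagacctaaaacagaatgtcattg
Tlr8: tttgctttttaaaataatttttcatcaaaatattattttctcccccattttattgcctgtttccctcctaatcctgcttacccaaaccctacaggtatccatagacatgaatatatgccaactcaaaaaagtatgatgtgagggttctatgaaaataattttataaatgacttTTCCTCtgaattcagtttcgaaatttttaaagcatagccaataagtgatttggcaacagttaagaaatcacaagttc
Tlr9: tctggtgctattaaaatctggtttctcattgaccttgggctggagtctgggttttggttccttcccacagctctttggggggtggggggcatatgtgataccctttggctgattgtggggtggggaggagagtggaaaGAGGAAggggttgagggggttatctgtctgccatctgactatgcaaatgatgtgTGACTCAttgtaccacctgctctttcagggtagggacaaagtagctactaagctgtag

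The PU.1 core began 83 bases upstream of the start in Tlr13, 112 bases upstream in Tlr9 and, on the opposite strand, spanned 77 to 72 bases upstream in Tlr8. The AP-1 match of Tlr9 began 58 bases upstream. Promoter windows were listed for 8 of the 10 receptor genes, Tlr4 and Tlr7 being the others, as 10 windows, since Tlr1 and Tlr6 had 2 each. The PU.1 core was held by 4 of the 10 windows, the remaining one being a window of Tlr1. Of 32851 windows of the same length over all genes, 23.3% held this core and 6.75% held the AP-1 letters, which among the receptors occurred in Tlr9 alone. A consensus of NF-kappaB matched in Tlr2, as overlapping matches, and in Tlr3, and in 7.25% of all windows. A consensus of the interferon-stimulated response element matched in 0 of the 10 windows and in 1.12% of all windows. A match describes letters and is not a binding site, and binding was not measured.

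All 9 receptors had their highest value on day 12, Tlr6 by 0.01 and not so when arrays were centred or quantile-normalized, and 8 of the 9 had their lowest value on day 14. Day 12 was strictly the highest day for 8.78% of all named genes, and day 14 strictly the lowest for 25.2%. Among the 9766 genes whose mean lay inside the range of the receptors' means, a comparison chosen after the values were seen, these shares were 11.5% and 36.4%. Both properties held for 8 receptors and for 3.2% of all named genes, or 4.4% of the 9766. Many genes held equal values on several days. Among the 9043 genes with 3 different values, day 12 was highest for 16.3%, and both properties held for 7.07%. The differences were small. No receptor reached 1.5-fold between any days. Of all genes, 2.33% were higher and 0.958% lower by that much from day 10 to day 12. The shares from day 12 to day 14 were 0.271% higher and 0.712% lower, and those from day 10 to day 14 were 3.11% and 2.98%. The comparisons share arrays, so a high value on the day 12 array enters both the first and the second difference.

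**Figure D1:**
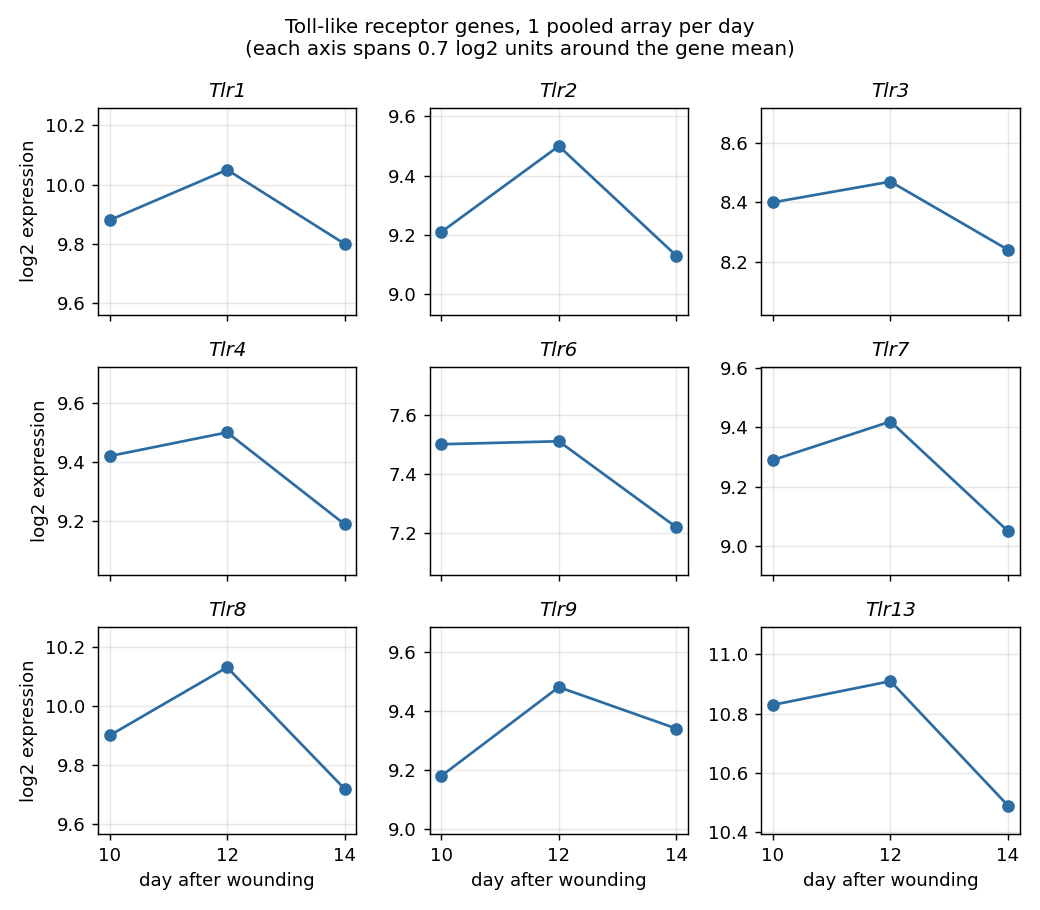
Log2 expression (vertical axis) of the 9 measured Toll-like receptor genes on days 10, 12 and 14 after wounding (horizontal axis), where each point is 1 array of a pool of 3 mice and each axis spans 0.7 log2 units. Day 12 is the highest point in every panel, and day 14 is the lowest in all but Tlr9; the day 12 and day 10 points of Tlr6 differ by 0.01, and their order turns under 2 of the other scalings tried.

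Among the surface receptors, Tlr2 had the largest difference on day 12. Its product pairs with TLR1 or TLR6 to bind bacterial lipopeptides. Tlr2 was measured at 9.21 (day 10), 9.50 (day 12) and 9.13 (day 14). The step up to day 12 was 0.29 (1.22-fold) and the step after it was −0.37 (1.29-fold lower), which left days 10 and 14 within 0.09 of each other.

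The partner gene Tlr1 followed the same order of days, with 9.88, 10.05 and 9.80 on days 10, 12 and 14. Its steps were 0.17 and −0.25. Tlr6, the other partner gene and the neighbour of Tlr1 on chromosome 5 with 0 protein-coding genes between them, stood at 7.50, 7.51 and 7.22. Tlr6 therefore differed by 0.01 between days 10 and 12, where the direction turned to −0.014 when arrays were centred on their medians and to −0.017 under quantile normalization, and it was lower by 0.29 on day 14 than on day 12. Among the 9 receptors, Tlr6 was also the one whose highest value lay under 8.36, the median of that quantity over all named genes.

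Tlr4 encodes the receptor for bacterial lipopolysaccharide. Its values on days 10, 12 and 14 were 9.42, 9.50 and 9.19. The day 12 value was 0.08 above day 10, and the day 14 value was 0.31 below day 12 and 0.23 below day 10. The lower day 14 value was the larger of its steps.

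The endosomal receptors included the largest decreases after day 12. Tlr13, which in mice encodes a receptor for bacterial ribosomal RNA, stood at 10.83, 10.91 and 10.49. Its day 14 value was 0.43 (1.35-fold) below day 12, the largest difference of any receptor between any days, and 279 of the 19938 genes (1.4%) differed downwards by at least as much. It was also 0.34 below day 10.

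Tlr7 and Tlr8, neighbours on the X chromosome with 0 protein-coding genes between them, encode receptors of the family that binds single-stranded RNA. Tlr8 stood at 9.90, 10.13 and 9.72, with steps of 0.23 and −0.41 (1.33-fold lower). Tlr7 stood at 9.29, 9.42 and 9.05, with differences of 0.13 and −0.37. In both genes day 14 was below day 10, by 0.17 for Tlr8 and 0.23 for Tlr7.

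Tlr3, a receptor of double-stranded RNA, stood at 8.40, 8.47 and 8.24, and day 14 was 0.23 below day 12. Tlr9 encodes the receptor for DNA rich in unmethylated CpG and stood at 9.18, 9.48 and 9.34. It had the largest difference of the receptors on day 12 against day 10, at 0.31 (1.24-fold), and the smallest on day 14 against day 12, at −0.14. It was the 1 receptor above its day 10 value on day 14, by 0.17.

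From day 10 to day 12 the median difference over the 9 receptors was 0.13, with a range of 0.01 to 0.31. From day 12 to day 14 it was −0.31 (−0.43 to −0.14), and from day 10 to day 14 it was −0.17 (−0.34 to 0.17). The median over all named genes was 0.00 in each comparison. By direction alone, 9 of 9 receptors were higher on day 12 than on day 10, beside 25.5% of all genes, and 9 of 9 were lower on day 14 than on day 12, beside 30.8%. On day 14 against day 10, 8 of 9 were lower, beside 35.6% of all genes. Without genes of equal values these shares were 42.5%, 48.5% and 50.5%. Equal values were common in this table, at 40.0%, 36.6% and 29.5% of all genes in the 3 comparisons, whereas no receptor held the same value on 2 days.

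Disagreement between probe sets of a gene was taken from 777 other genes that had 2 probe sets. The gap between the differences of both probe sets had a median size of 0.04 for the first pair of days, 0.05 for the second and 0.07 for day 10 with day 14. Its 95th percentile was 0.37, 0.29 and 0.48. Of the 9 receptors, Tlr2, Tlr4, Tlr7, Tlr8 and Tlr13 lay beyond that percentile on day 14 against day 12, beside 5.55% of all named genes. In the other comparisons 0 receptors did so, beside 8.0% of all genes on day 12 against day 10 and 8.88% between days 10 and 14. These gaps leave out the animals and any effect common to a whole array. They do not show whether another set of mice would give the same differences.

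**Figure D2:**
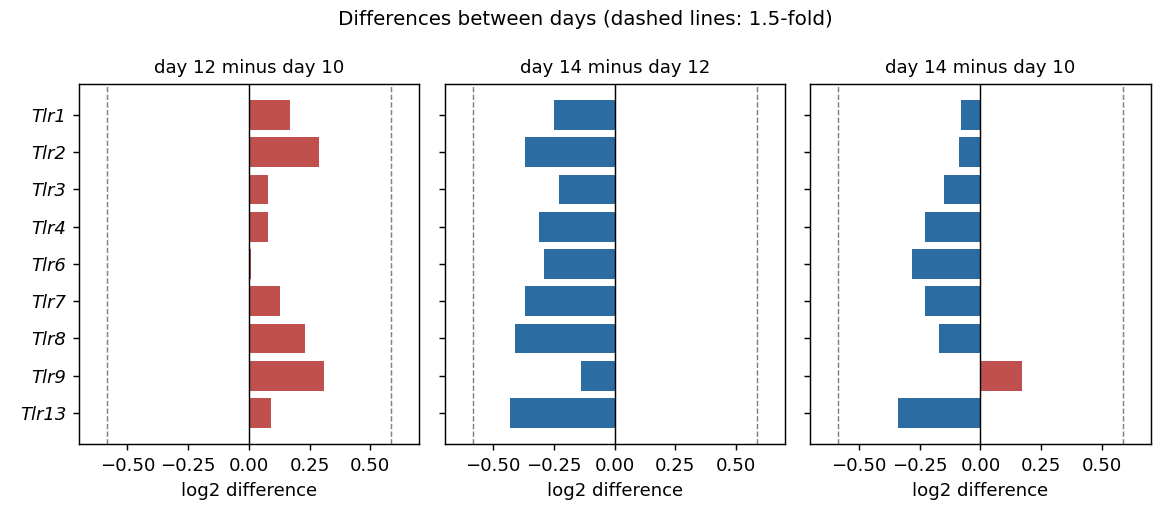
Log2 difference (horizontal axis) of each Toll-like receptor gene (vertical axis) between the pairs of days, with red bars for higher and blue bars for lower values on the later day and dashed lines at 1.5-fold (0.585 log2 units). Each bar compares 1 array with 1 array; none reaches a dashed line, and Tlr9 is the 1 red bar on day 14 against day 10.

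The other genes of the pathway were grouped by role. Beside the counts of these lists, 25.5% of all named genes were higher and 34.5% lower on day 12 than on day 10. From day 12 to day 14, 30.8% of all named genes were lower, 0.712% by at least 1.5-fold. On day 14 against day 10, 34.9% were higher and 35.6% lower, with 3.11% and 2.98% past 1.5-fold. Co-receptors and trafficking factors were mostly lower on day 14 than on day 12, in 13 of 14 genes with a median of −0.15, while 8 of the 14 stood above day 10 by day 12, for a median of 0.04. Cd14, which hands lipopolysaccharide to TLR4, stood at 9.66, 10.32 and 8.95, and at 2.58-fold lower it was the 1 gene of the group past 1.5-fold on day 14 against day 12. Ly96, which encodes the TLR4 partner MD-2, stood at 11.43, 11.40 and 11.24. Unc93b1, which carries endosomal receptors out of the endoplasmic reticulum, stood at 10.82, 10.87 and 10.71. Lbp, which encodes the lipopolysaccharide binding protein, went the other way with 8.53, 8.81 and 9.36. The protease gene Lgmn, which acts in endosomes, differed by −0.37 between days 14 and 10, and the scavenger receptor gene Cd36 by 0.22.

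Adaptors, kinases and transcription factors did not share one order of days. Of 25 measured genes, 14 were higher, 5 lower and 6 equal on day 12 against day 10, with a median of 0.02. On day 14 against day 12, 4 were higher, 14 lower and 7 equal, with a median of −0.02 whose sign turned under centring, quantile normalization and cyclic loess. Myd88, the adaptor gene used by most receptors, stood at 11.35 on day 10 and at 10.99 on both later days. Tirap, which encodes the bridging adaptor of TLR2 and TLR4, stood at 10.13, 9.71 and 9.52, and was the 1 gene of the group at least 1.5-fold lower on day 14 than on day 10. Ticam1, the TRIF gene, stood at 9.51, 9.27 and 9.29. These 3 adaptor genes were thus lower on day 12 than on day 10, while Ticam2, an adaptor gene of TLR4 named after its values were seen, stood at 8.33, 8.44 and 8.55. Irf7, an interferon regulatory factor gene downstream of the endosomal receptors, was also highest on day 12, with 9.72, 10.39 and 9.83, but lowest on day 10. The ubiquitin ligase gene Traf6 was 0.47 above day 10 on day 14, and the NF-kappaB subunit gene Rel 0.43 above.

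Of 14 genes of inhibitors, 8 were higher and 2 lower when day 12 was set against day 10, for a median of 0.16. On day 14, 7 were above and 2 below their day 10 values, for a median of 0.01. Tnfaip3, which encodes the ubiquitin-editing enzyme A20, stood at 8.24, 8.79 and 8.47. Irak3, an inhibitory kinase-like gene of macrophages, stood at 10.33, 10.70 and 10.63, so that it stayed near its day 12 value when the receptors were lower. Zc3h12a, an RNase gene, and Atf3, a transcriptional repressor gene, likewise stood 0.64 and 0.49 above day 10 on day 14. The NF-kappaB inhibitor gene Nfkbia stood at 10.61, 10.79 and 10.60. The median of this list on day 14 against day 12 was −0.01, and its sign turned under centring and quantile normalization.

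As a list, known target genes of the receptors differed more between days than the receptors themselves, but not in every gene. Il6 held 5.62 and Cxcl1 7.57 on every array, and 3 of the 24 genes stayed below the lower quartile level of 5.92. Cxcl3 and Cxcl2 differed most, by 2.24 and 2.05 on day 12 against day 10, and by −2.70 and −2.36 on day 14 against day 12. Of 24 measured, 18 were higher on day 12 than on day 10, 11 of them at least 1.5-fold, with a median of 0.36. Of all named genes, 25.5% were higher, and 2.33% were at least 1.5-fold higher. On day 14 against day 12, 17 were lower, 11 of them at least 1.5-fold, with a median of −0.45. On day 14 against day 10 the target gene list was split, with 12 higher and 10 lower. Its median of 0.01 turned to −0.00075 under quantile normalization and to −0.0096 under cyclic loess. The interleukin gene Il1b stood at 10.44, 11.08 and 9.52, and the cyclooxygenase gene Ptgs2 at 10.32, 10.78 and 8.83. The acute-phase gene Saa3 stood at 10.54 and 10.56 before a day 14 value of 8.92. Il1a kept its day 12 value, with 9.40, 10.54 and 10.46. Many genes of this list are also known to respond to interleukin 1 and tumour necrosis factor.

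Candidate endogenous ligands from injured cells and matrix were not higher on day 12 as a list. Of 12 genes, 4 were higher and 7 lower than on day 10, with a median of −0.03, and none reached 1.5-fold in any comparison. Hmgb1, a nuclear protein gene whose product is released from dying cells, stood at 9.56, 9.12 and 8.99. The tenascin C gene Tnc, whose product has been described as a TLR4 ligand, stood at 13.25, 13.14 and 12.71. S100a9, a calprotectin subunit gene, stood at 10.64, 10.33 and 10.30, whereas the heat shock gene Hspa1a was 0.42 above day 10 on day 14.

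**Figure D3:**
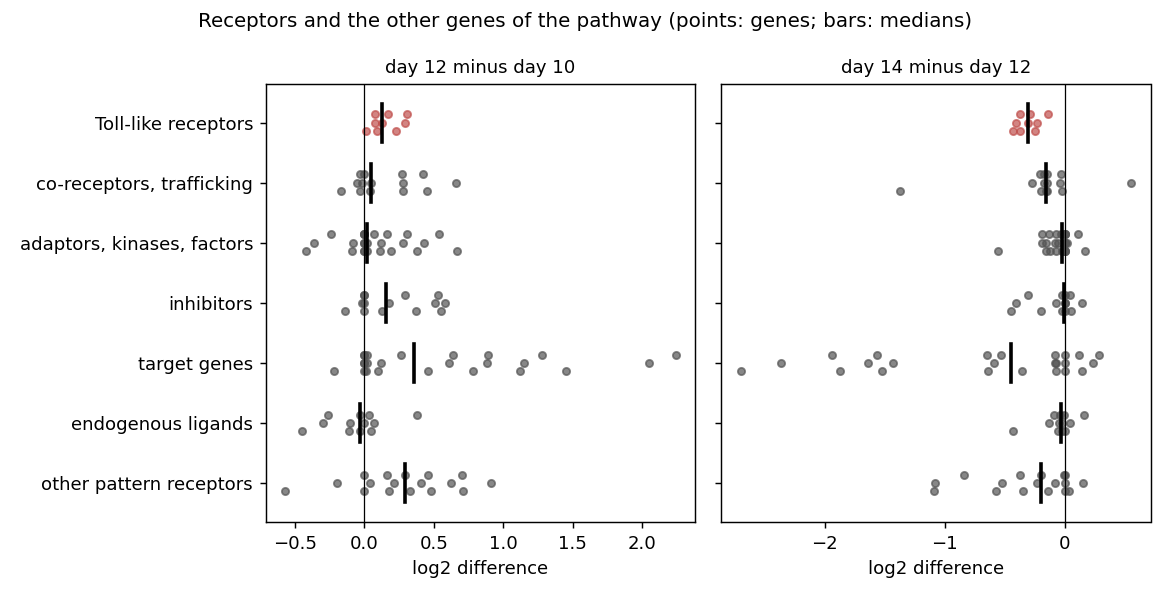
Log2 differences (horizontal axis) on day 12 against day 10 (left) and day 14 against day 12 (right) for the receptors (red) and 6 lists of related genes (grey), where each point is a gene and each black bar a list's median. The 9 receptors lie to the right of 0 on the left and to the left of 0 on the right, within a narrower range than the target genes; the 2 panels share the day 12 array.

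Other genes of pattern recognition were a list of receptors, cytosolic adaptors and the inflammasome protease gene Casp1. They had a wider range of differences than the 9 receptors, from −0.57 to 0.91 on day 12 against day 10. Without Tlr12, 12 of 16 measured genes were higher on day 12, 4 of them at least 1.5-fold. From day 12 to day 14, 12 of the 16 were lower, 3 of them at least 1.5-fold. Day 12 was the highest day for 10 of the 16, beside 8.78% of all named genes. The lectin receptor genes Clec4n and Clec4d differed by −0.71 and −0.62 between days 14 and 10. The inflammasome adaptor gene Pycard differed by 0.85, and Sting1, the adaptor gene of cytosolic DNA sensing, by −0.80. Tlr12, a mouse receptor gene outside the 10 members and named after its values were seen, stood at 6.68 on day 10 and at 6.88 on days 12 and 14.

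Most markers of macrophages and monocytes were highest on day 12, as the receptors were. Of 12 markers, 10 were higher and 1 lower on day 12 than on day 10, and 11 were lower on day 14 than on day 12, with median differences of 0.07 and −0.21. Day 12 was the highest day for 10 of the 12, or 9 under centring, quantile normalization or cyclic loess. Day 14 was the lowest for 7. Both held for 6 of the 12 markers, beside 8 of the 9 receptors. Of all named genes, these shares were 8.78%, 25.2% and 3.2%. Among the 9969 genes with a mean at or above the median of gene means, they were 14.4%, 40.8% and 5.39%. Of those 9969, 32.8% were higher on day 12 than on day 10, and 49.8% were lower on day 14 than on day 12. The mean level of the macrophage and monocyte markers was 10.76, 10.91 and 10.67, beside 9.29, 9.44 and 9.13 for the receptors. In pooled tissue, fewer cells of a type and less RNA per cell cannot be told apart, and the part of macrophage content in the receptors' values was not tested. Of 9 neutrophil markers, 5 were higher on day 12 than on day 10 and 5 lower on day 14 than on day 12, with medians of 0.03 and −0.06. Mmp8 in that list was 5.37-fold lower on day 14 than on day 12, whereas Camp held 6.50 on every array. Day 12 was highest and day 14 lowest for 2 of the 9, Mmp8 and Cxcr2, the latter at 9.51, 9.85 and 9.39. Day 12 was the highest day for 3 of the 9 under quantile normalization and for 5 under cyclic loess. The median level of the list was 6.82, 6.91 and 6.86.

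Beyond macrophages and neutrophils, no marker list had a median rise to day 12 with a median fall after it, as the receptors had. Single medians did come near those of the receptors. From day 10 to day 12, keratinocyte (0.12) and T cell (0.10) markers were close to the receptors' 0.13. After day 12 the endothelial and fibroblast medians were also negative, at −0.17 and −0.02, beside −0.31 for the receptors. Several medians were near 0. These lists describe marker genes, and amounts of the cell types were not measured. Of 9 dendritic and Langerhans cell markers, 8 were higher on day 12 than on day 10, and 7 were higher and none lower on day 14 than on day 12, with medians of 0.33 and 0.19. The 4 measured markers of plasmacytoid dendritic cells, which use Tlr7 and Tlr9, had medians of 0.04 and 0.09, and Siglech stood at 7.38, 7.47 and 7.47. The 5 measured B cell markers had medians of 0.00 and 0.05, and 2 of them, Ms4a1 and Cd79a, stayed below the lower quartile level of 5.92 on all arrays. For Tlr9, the 1 receptor still above day 10 on day 14, the share of these cells was not tested. The 6 mast cell markers had medians of 0.65 and 0.36, the 7 keratinocyte markers of 0.12 and 0.03, the 6 fibroblast markers of 0.00 and −0.02, the 5 measured T cell markers of 0.10 and 0.04 and the 5 endothelial markers of −0.29 and −0.17.

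**Figure D4:**
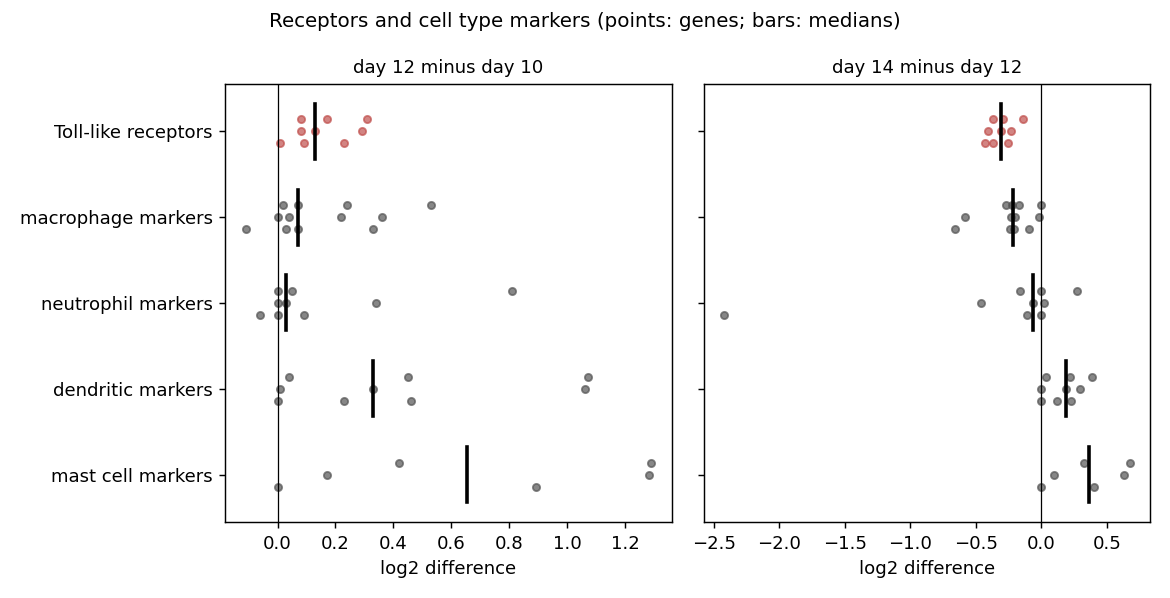
Log2 differences (horizontal axis) on day 12 against day 10 (left) and day 14 against day 12 (right) for the receptors (red) and for markers of macrophages, neutrophils, dendritic cells and mast cells (grey), with a point per gene and a black bar per median. Macrophage markers are mostly right of 0 on the left and left of 0 on the right, as the receptors are, while dendritic and mast cell markers lie at or right of 0 in both panels.

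Tlr7, Tlr8 and Tlr13 lie on the X chromosome, and the pools differed in sex-linked transcripts. The Y-linked gene Eif2s3y stood at 5.49, 9.59 and 8.38, Uty at 5.49, 9.0 and 7.84 and Kdm5d at 6.17, 8.42 and 7.50. Xist, made from the inactive X, stood at 12.3, 12.05 and 12.28, lowest on the day on which the receptors were highest. The 6 autosomal receptors also had day 12 as their highest day, Tlr6 with the exception of scale given above. Day and the sex of the pooled mice cannot be told apart for autosomal genes either. The part of sex in the values of the receptors, X-linked or autosomal, was therefore not tested.

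Genes with the most similar course were sought for Tlr13 and Tlr8, by the largest deviation over the 3 arrays between profiles centred on their own means. The closest to Tlr13 were Fabp4 (deviation 0.01), a fatty acid binding protein gene of adipocytes and macrophages, Slfn10-ps (0.015) and Cdc26 (0.02). The closest to Tlr8 were Dmxl2 (0.012), Clec4a1 (0.014), a lectin receptor gene, and Spi1 (0.018), which encodes PU.1. Spi1 stood at 10.64, 10.87 and 10.43. Candidates were named genes with a mean at or above the median of gene means, without the receptors and without predicted genes. They are another set than the genes with means inside the receptors' range, which also numbered 9766. Over these 3 arrays, 125 of 9766 candidate genes lay within 0.1 of Tlr13 and 92 within 0.1 of Tlr8. Within 0.05 there were 21 and 25, so many other genes were nearly as close as those named.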

How the data were processed

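The authors deposited 1 log2 expression value per probe set for 3 arrays, 1 per day. Per the submitters' processing notes RMA and Partek 6.6 were used, with no role given. The log2 scale was taken from the range of the values. The genome build of the processing is not given in the sources used here, no scanner output was used, and detection per probe set is unknown. Per the labels' protocols, RNA (250 ng) from pooled tissue of 3 mice was amplified and labelled with biotin.

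Values were used as deposited. Symbols came from the platform annotation, which gave 1 symbol to 21789 probe sets, several to 1621 and did not list 12146. Probe sets of a gene were averaged, with no level filter. With 1 array per day there is no test, and genes are counted past 1.5-fold or 2-fold beside all 19938 named genes. The members and lists were chosen with earlier results of these data known. Named genes were all members, from each list the 4 with the largest difference between days 14 and 10, 9 fixed pathway genes, and the 3 genes most like each of 2 members. Other genes were named after their values were seen. Alternatives were array centring, quantile normalization, cyclic loess (limma 3.58.1), the brightest probe set per gene, 2 level filters, a 2-fold threshold and the removal of equal values. Counting was tested on simulated data. Python 3.11.15 and pandas 2.3.3 were used.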

Additional observations from a re-analysis of the deposited data

How the results depend on the processing

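No paired analysis was possible because each day had 1 array. The receptor medians kept their direction under array centring, quantile normalization, cyclic loess and both level filters, and the count past 1.5-fold was 0 under the 3 scalings. The 2-fold threshold and the level filters could not raise that count, and the brightest probe set and the removal of equal values could not change the receptors, which had 1 probe set each and no equal values. The count of 9 receptors with day 12 highest was 8 when arrays were centred on their medians and 8 under quantile normalization, a check added after the data were seen; the exception was Tlr6, at −0.014 and −0.017 on day 12 against day 10. The median over the adaptor, kinase and transcription factor list on day 14 against day 12 turned to 0.00016 under centring, 0.022 under quantile normalization and 0.0032 under cyclic loess. For the inhibitors it turned to 0.0099 and 0.021 under the first 2 of these. The median of the target genes on day 14 against day 10 turned to −0.00075 under quantile normalization and −0.0096 under cyclic loess. Without scanner signals, how far each receptor stood above background is unknown. The cause of these changes was not tested.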
